A study of Mus musculus with 6 samples.

Results

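The 34 genes described here encode the actin cytoskeleton and its transcriptional regulator: serum response factor (Srf), its actin cytoskeleton targets, smooth muscle contractile proteins and regulators of actin filaments. They were chosen by gene symbol, and all 34 were found among the 19241 genes of the expression table. The study profiled bulk RNA of interscapular brown fat, taken at birth, in 6 libraries. The 3 WT libraries came from mice labelled Fstl1-floxed, and the 3 KO libraries from mice labelled Myf5-Fstl1 KO, in which the Myf5 lineage lacks Fstl1, the gene of the secreted glycoprotein follistatin-like 1. All mice were newborn. Myf5 is active in precursors of skeletal muscle and of part of the brown fat, so a deletion driven from it is not limited to brown adipocytes, and blood vessels, nerves and blood cells of the depot lie largely outside that lineage. The labels do not say which Cre line was used, whether the WT mice carried it, or whether animals were pooled.

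Actin monomers assemble into filaments whose growth, severing and capping are set by small actin-binding proteins, and myosin, tropomyosin and cross-linking proteins turn these filaments into contractile bundles anchored at cell adhesions. SRF is a DNA-binding protein that drives many of these genes through a promoter element called the CArG box. Its cofactors of the MRTF family bind free actin monomers, so the state of the filaments feeds back on transcription, and in adipose tissue this loop is known to change as precursors become fat cells. Smooth muscle isoforms of the same proteins mark the muscle coat of blood vessels.

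Values are FPKM, that is fragments scaled to transcript length and to sequencing depth, so that levels can be set beside each other between genes. Fold changes are differences between KO and WT means of log2(FPKM + 1), with the standard error (SE) from a limma fit to the 13331 genes that averaged 0.5 FPKM or more, and p-values were adjusted over all of them. The 34 members were proposed with earlier KO against WT results of these data known, so their differences describe the data and are not independent evidence. All 34 passed the filter. The targeted gene Fstl1 stood at 55.5, 130.04 and 54.4 FPKM in WT against 7.93, 13.1 and 8.77 FPKM in KO (log2 fold change −2.79, SE 0.33, limma adjusted p 0.00979; exact permutation test, two-sided p 0.1, the smallest that 3 against 3 can give). The brown adipocyte markers Ucp1 and Adipoq were abundant in all 6 libraries, at 1695 to 6255 FPKM and 889 to 1216 FPKM. Of 10 such markers 6 had a lower KO mean of log2(FPKM + 1) and 4 a higher one. Elovl3 (17.6% of WT, limma adjusted p 0.0151) and Plin1 (37.9%, 0.0267) passed an adjusted p of 0.05, as did 2.21% of all genes tested. In KO, Ucp1 was at 48.9% of WT (limma, adjusted p 0.0804). Prdm16 was low throughout, at 1.68 to 5.25 FPKM, and its KO mean was 46.0% of WT (log2 fold change −0.87, limma adjusted p 0.05195). In 4 of the 10 markers, Ucp1 and Prdm16 among them, every KO value lay below every WT value. The reverse held in 0 of the 10, and over all genes tested the shares were 11.4% and 13.6%. The summed FPKM of 15 skeletal muscle markers was 1610 to 2360 in WT, 431 in KO replicate 1 and 1762 and 2106 in the other KO libraries, and that of 5 erythroid markers was 11010 in WT replicate 3 and 2345 to 3894 elsewhere. Transcripts of 4 Y-linked genes were at 7.39 FPKM or more in every KO library and at 0.23 FPKM or less in every WT library, and Xist showed the reverse, so genotype and sex cannot be told apart in any difference below. The labels do not say that the libraries of a group came from separate litters, so p-values measure the spread between these libraries only.

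The CArG box was searched for in the RefSeq promoter windows of GRCm38.p6, the build named mm10 in the submitters' processing notes. Each window covers 250 bases before a transcription start and 50 after it. The pattern reads the same on both strands, and no other motif was searched. Of the 34 members, 29 had a window; Actb, Actg2, Tagln, Myh11 and Diaph1 had none. A box was found in 8 of the 29 (27.6%), namely Srf, Actg1, Vcl, Cnn2, Myl9, Lima1, Fhl1 and Fhl2, against 1.81% of the 27025 genes with a window and 1.63% of all 32851 windows. The members were picked in part as known SRF targets, so this difference follows from the choice. The 6 stretches below, of 100 bases each and all upstream of the start, show the box in capitals for Srf itself, for the 3 target genes with the lowest KO levels relative to WT among those with a box (Actg1, Cnn2 and Vcl), for a smooth muscle gene (Myl9) and for a gene whose KO and WT values overlapped (Lima1).
Srf, chr17:46556190-46556289, minus strand: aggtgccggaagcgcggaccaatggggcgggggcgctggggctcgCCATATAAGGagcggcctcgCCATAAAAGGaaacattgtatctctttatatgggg
Actg1, chr11:120348543-120348642, minus strand: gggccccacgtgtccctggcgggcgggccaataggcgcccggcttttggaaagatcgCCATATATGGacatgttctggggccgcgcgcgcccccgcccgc
Vcl, chr14:20929148-20929247, plus strand: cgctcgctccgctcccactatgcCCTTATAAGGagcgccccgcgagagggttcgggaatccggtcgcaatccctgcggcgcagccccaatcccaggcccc
Cnn2, chr10:79988484-79988583, plus strand: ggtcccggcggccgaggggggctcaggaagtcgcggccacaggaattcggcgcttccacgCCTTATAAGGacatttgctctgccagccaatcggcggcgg
Myl9, chr2:156775258-156775357, plus strand: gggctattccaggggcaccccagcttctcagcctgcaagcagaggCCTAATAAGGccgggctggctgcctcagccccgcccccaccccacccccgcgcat
Lima1, chr15:99820150-99820249, minus strand: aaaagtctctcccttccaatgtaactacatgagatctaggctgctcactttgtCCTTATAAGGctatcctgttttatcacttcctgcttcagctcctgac
Srf carries 2 boxes, which begin 82 and 62 bases before the start. Vcl, Cnn2 and Lima1 share the same box letters at different distances, 227, 56 and 47 bases before the start. Here the start is the transcription start that the window was built on, and a gene can have several. The Srf and Lima1 stretches lie inside the annotated gene spans, chr17:46546838-46558267 and chr15:99778468-99875477, so their windows belong to internal starts.

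The members were lower in KO as a group, with the cytoplasmic actins in front. Of the 34, 31 had a lower mean of log2(FPKM + 1) in KO and 3 (Lmod1, Actn1 and Ankrd1) a higher one, against 48.3% lower over all genes tested; counts of genes lower or higher in KO below use this log2 mean. The median log2 fold change was −0.35 over the members and 0.01 over all genes tested. In 15 members every KO value lay below every WT value, and in 0 members every KO value lay above; over all genes tested 11.4% were separated in the first direction and 24.9% in either. Actb, Actg1 and Vcl passed an adjusted p of 0.05 in limma, all lower in KO; of all genes tested 2.21% passed, 1.01% lower and 1.21% higher. That is 3 of 34, and 13 members had an unadjusted p under 0.05, as had 19.2% of all genes tested. In bulk tissue, fewer cells of a type and less RNA per cell cannot be told apart.

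**Figure D1:**
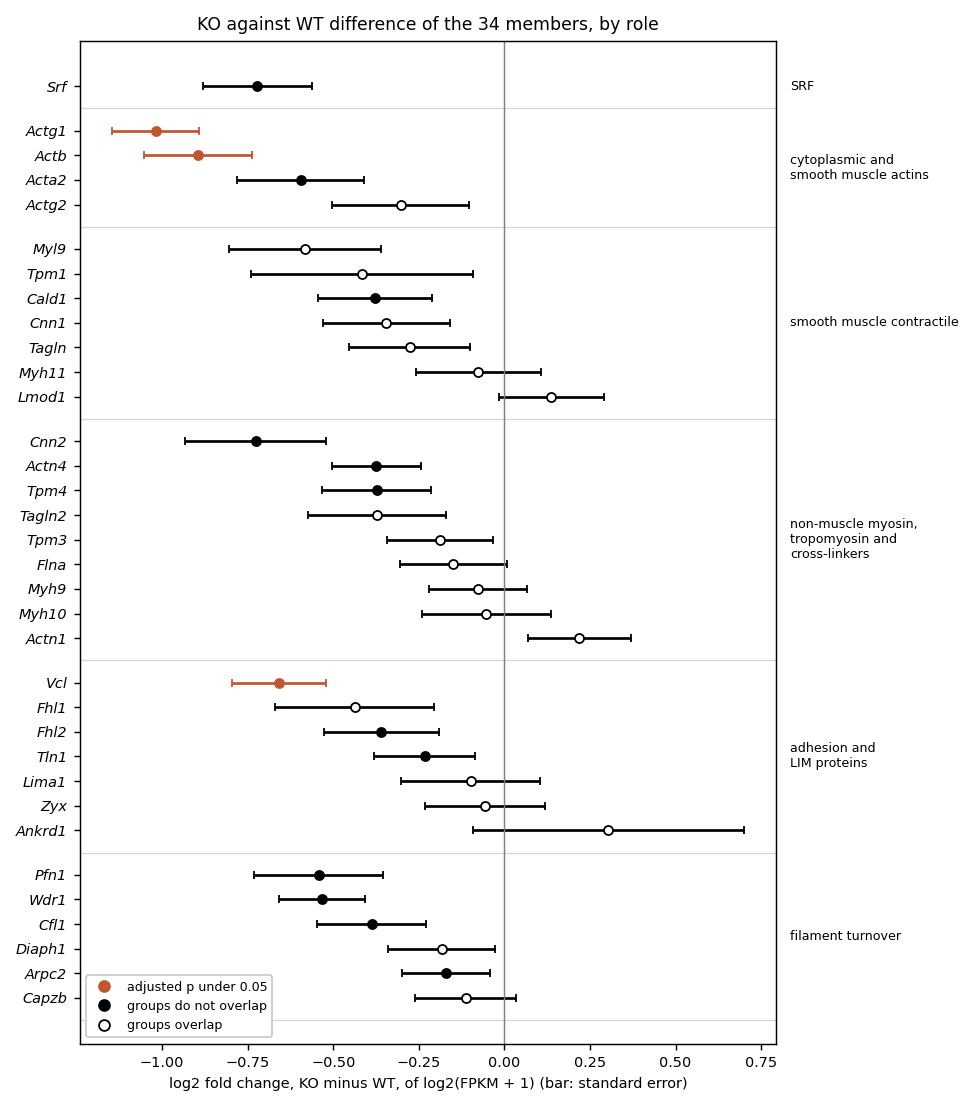
Log2 fold change (KO minus WT, of log2(FPKM + 1)) of the 34 members by role, with the standard error from limma as bars. Actg1, Actb and Vcl, in orange, are the members past an adjusted p of 0.05, and 31 of the 34 points lie left of 0.

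Srf (chr17:46546838-46558267) was expressed at a modest level. Its FPKM was 11.6, 8.65 and 11.7 in WT and 6.03, 5.64 and 6.36 in KO, replicates 1 to 3 in order here and below. All 3 KO libraries lay below the lowest WT library, and the KO mean was 56.5% of the WT mean. Its log2 fold change was −0.72 (SE 0.16), just outside the threshold (limma, adjusted p 0.0559), and it passed in 2 of 16 alternative analyses, the filter at 5 FPKM (0.0442) and robust eBayes (0.0477).

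The cytoplasmic actins were the most abundant members and fell most. Actb (chr5:142903115-142907976), which encodes beta-actin, was at 493, 491 and 525 FPKM in WT against 266, 325 and 227 FPKM in KO. Its means were 503 ± 19.1 and 273 ± 49.4 FPKM (SD, n = 3 each; log2 fold change −0.89, SE 0.16, limma adjusted p 0.0337). Actg1 (chr11:120345687-120348495), which encodes gamma-actin of non-muscle cells, was at 426, 415 and 389 FPKM in WT against 191, 215 and 199 FPKM in KO. Its means were 410.1 ± 19.0 and 202 ± 12.3 FPKM (SD, n = 3 each; log2 fold change −1.02, SE 0.13, limma adjusted p 0.0130). The WT libraries of both genes were tightly grouped and far above every KO library. Actb lost the threshold without WT replicate 2 (adjusted p 0.136), WT replicate 3 (0.0991), KO replicate 1 (0.0833) or KO replicate 3 (0.0968) and with no filter on low genes (0.0874). Among the 6 fits without a library, Actg1 lost it in the one without WT replicate 2 (limma, adjusted p 0.0713).

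The smooth muscle actins were less abundant and had lower KO means as well. Acta2, the alpha-actin of vascular smooth muscle, was at 29.1, 41.8 and 41.8 FPKM in WT against 21.2, 28.4 and 23.5 FPKM in KO. The groups did not overlap, though WT replicate 1 lay close to KO replicate 2 (log2 fold change −0.60, SE 0.19, limma adjusted p 0.132). Without WT replicate 1 the fold change was −0.77 and the gene passed (limma, adjusted p 0.0469). Actg2, the gamma-actin of visceral smooth muscle, was at 3.41 to 4.66 FPKM in WT against 2.27 to 4.24 FPKM in KO, with overlap.

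The 4 actins together were almost constant within WT. Their summed level was 952, 952 and 961 FPKM in WT against 482, 573 and 452 FPKM in KO, which left KO at 52.6% of the WT mean. The 32 members other than Actb and Actg1 summed to 1949 ± 216 FPKM in WT against 1532 ± 117 FPKM in KO (SD, n = 3 each), or 78.6% of WT. Actb and Actg1 therefore made up 30.1% to 35.1% of the members' summed FPKM in WT against 22.3% to 24.5% in KO. Within the 4 actins the smooth muscle pair took 3.41%, 4.85% and 4.84% in WT and 5.06%, 5.69% and 5.70% in KO. The lowest KO share lay above the highest WT share, with means of 4.37% ± 0.827 in WT and 5.48% ± 0.366 in KO (SD, n = 3 each), and the difference was 0.638 percentage points without WT replicate 1. The coding sequences of the actin genes, including the skeletal and cardiac Acta1 and Actc1, are similar, and Actb and Actg1 have many processed pseudogenes. How reads shared between them were assigned is not given in the sources used here, so the split between isoforms is uncertain.

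**Figure D2:**
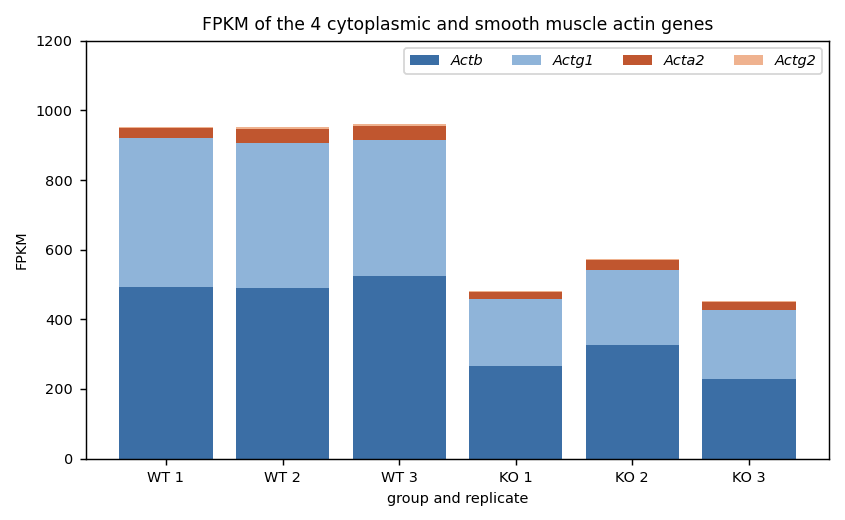
FPKM of Actb, Actg1, Acta2 and Actg2 stacked for each of the 6 libraries. The 3 WT bars reach 952 to 961 FPKM and the 3 KO bars 452 to 573 FPKM, and most of each bar is Actb and Actg1.

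Among the 7 smooth muscle contractile genes 0 passed the threshold and 6 had a lower KO mean. In this group 2 genes had an unadjusted p under 0.05, where the share over all genes tested was 19.2%. Cald1, which encodes caldesmon, an actin-binding regulator of contraction, was at 31.4, 42.6 and 29.7 FPKM in WT against 27.1, 26.8 and 24.2 FPKM in KO. It was the only one of the 7 without overlap (log2 fold change −0.38, SE 0.17, limma adjusted p 0.257), where 11.4% of all genes tested were separated with KO lower. Myl9, a regulatory light chain of smooth muscle and non-muscle myosin, was at 20.3, 31.7 and 33.6 FPKM in WT against 14.9, 22.6 and 18.2 FPKM in KO, overlapping in 1 pair of libraries (log2 fold change −0.58, limma adjusted p 0.202). Tagln (transgelin) was at 22.4 ± 2.44 and 18.5 ± 4.05 FPKM (SD, n = 3 each). Cnn1 (calponin 1) was at 1.36 to 1.47 FPKM in WT against 0.56, 1.45 and 0.80 FPKM in KO, so KO replicate 2 stood at the WT level. Myh11, the smooth muscle myosin heavy chain, was at 8.92 ± 2.17 and 8.30 ± 0.909 FPKM, and Lmod1, a leiomodin that starts new filaments, was at 1.25 ± 0.222 and 1.47 ± 0.227 FPKM (SD, n = 3 each). In KO, Myl9 and Cald1 held 65.1% and 75.4% of their WT means, and Myh11 held 93.1%. Of 10 markers of vascular mural cells (pericytes and smooth muscle) 8 had a lower KO mean, against 48.3% of all genes tested. Abcc9 (112% of WT) and Heyl (109%) had a higher one, and Pdgfrb stood at 95.7%. Past the threshold were 2 of the 10, Cspg4 and Higd1b, where the share of all genes tested was 2.21%. Cspg4, at 5.99 ± 1.17 FPKM in WT, stood at 2.14 ± 1.06 FPKM in KO (limma adjusted p 0.0435). Higd1b, at 2.76 ± 0.734 FPKM in WT, stood at 0.673 ± 0.328 FPKM in KO (limma adjusted p 0.0318, SD, n = 3 each). Cspg4 lost the threshold without WT replicate 2 (0.178), WT replicate 3 (0.137), KO replicate 2 (0.109) or KO replicate 3 (0.124), and Higd1b without WT replicate 2 (0.121), WT replicate 3 (0.0966), KO replicate 1 (0.0672) or KO replicate 2 (0.0743). The 10 markers summed to 157 to 197 FPKM in WT against 141 to 161 FPKM in KO, none was at 0 throughout, and their part in the lower actin values was not tested.

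Tpm1, a tropomyosin used in smooth, skeletal and cardiac muscle as well as in non-muscle cells, was lowest in the library where the skeletal muscle markers were lowest. It was at 163, 219 and 172 FPKM in WT against 75.5, 195 and 174 FPKM in KO. Only KO replicate 1, the library with the low muscle markers, was below the WT range. Including that library, Tpm1 differed by −0.42 on the log2 scale (limma, adjusted p 0.521), and by 0.01 without it. All 14 skeletal muscle markers tested had a lower KO mean of log2(FPKM + 1), though the embryonic myosin Myh3 had a higher mean FPKM in KO (16.3 against 13.7), with a median log2 fold change of −0.67, 0 past the threshold and 1 at an unadjusted p under 0.05; Acta1, the skeletal muscle actin, was at 369, 541 and 439 FPKM in WT against 78.6, 367 and 515 FPKM in KO, a log2 fold change of −0.85, or −0.03 without KO replicate 1. The weight of KO replicate 1 in the other members' values can be read from the same fits: without KO replicate 1 the median of the members was −0.25, Actb was at −0.88 and Actg1 at −0.98.

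Of the 9 non-muscle myosin, tropomyosin and cross-linker genes 8 had a lower KO mean, 3 of them without overlap. Over all genes tested 11.4% were separated with KO lower and 24.9% in either direction. Of the 9, 0 passed, with 3 at an unadjusted p under 0.05 (all genes tested, 19.2%). Cnn2 (calponin 2), the non-muscle calponin, was at 11.5, 19.3 and 19.7 FPKM in WT against 9.64, 9.96 and 8.89 FPKM in KO. The KO libraries were tightly grouped and WT replicate 1 lay nearest to them (log2 fold change −0.73, SE 0.21, limma adjusted p 0.105). Without WT replicate 1 the gene passed, at −0.96 (limma, adjusted p 0.0257). Actn4, an alpha-actinin that bundles filaments in non-muscle cells, was at 103, 110 and 108 FPKM in WT against 89.4, 82.6 and 75.6 FPKM in KO (log2 fold change −0.37, SE 0.13, limma adjusted p 0.173). Its relative Actn1 lay the other way, at 19.1 ± 1.95 in WT and 22.4 ± 2.79 FPKM in KO, with overlap (SD, n = 3 each). Tpm4, a tropomyosin of non-muscle filaments, was at 119, 154 and 124 FPKM in WT against 96.2, 117 and 92.4 FPKM in KO, a separation of under 2 FPKM between the nearest libraries. Tpm3 (111.8 ± 3.80 and 98.9 ± 17.7 FPKM) and Tagln2, transgelin 2 (76.1 ± 18.9 and 57.5 ± 5.67 FPKM), had lower KO means with overlap (SD, n = 3 each). The non-muscle myosin heavy chains Myh9 and Myh10 and the cross-linker filamin A (Flna) differed little: KO held 94.8%, 94.5% and 89.0% of their WT means. Myh11 made up 15.1% to 18.1% of the summed FPKM of Myh9, Myh10 and Myh11 in WT and 14.4% to 18.6% in KO.

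**Figure D3:**
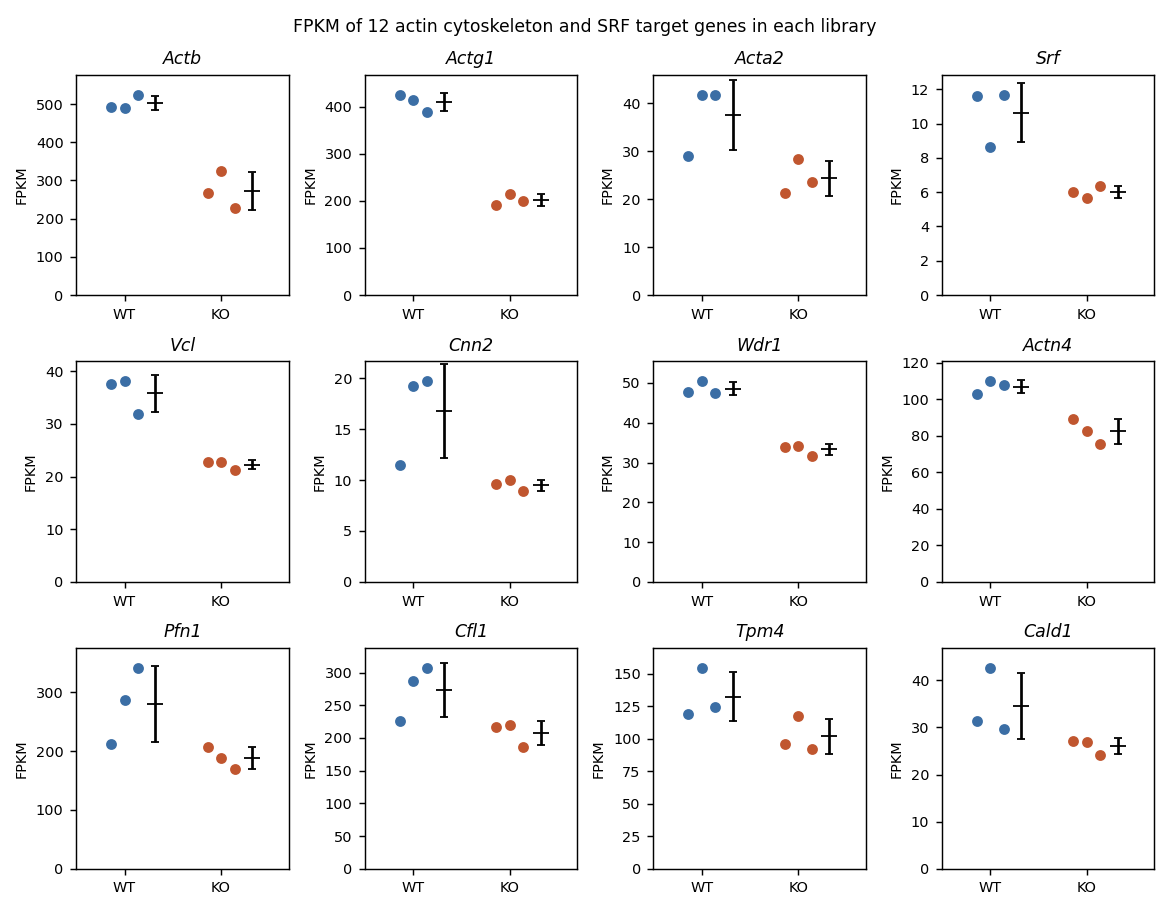
FPKM of 12 of the 15 members whose WT and KO values did not overlap, each point 1 library, with the group mean and SD (n = 3) beside the points and axes from 0. In Actb, Actg1, Vcl and Wdr1 the gap between the groups is wide against the spread within them, and in Pfn1, Cfl1, Tpm4 and Cald1 the nearest libraries almost meet.

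Of the 7 adhesion and LIM-domain genes 6 had a lower KO mean, 3 of them without overlap (Vcl, Tln1 and Fhl2), and Vcl passed the threshold. Over all genes tested 11.4% were separated with KO lower and 2.21% passed. In this group 1 gene had an unadjusted p under 0.05 in limma (all genes tested, 19.2%). Vcl (chr14:20929383-21033676), whose product links adhesion receptors to actin filaments, was at 37.6, 38.1 and 31.8 FPKM in WT against 22.7, 22.8 and 21.3 FPKM in KO. Its KO mean was 62.2% of WT (log2 fold change −0.66, SE 0.14, limma adjusted p 0.0465). The call stood at the edge of the threshold. It was lost whichever library was left out (adjusted p 0.0543 to 0.207), with rescaling to a common sum (0.0830), without the eBayes trend (0.0520) and without the filter (0.0828), while the fold change stayed between −0.74 and −0.61.

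The other adhesion and LIM-domain members did not pass. Talin 1 (Tln1), which activates integrins and binds vinculin, was at 22.9, 28.5 and 24.6 FPKM in WT against 22.3, 19.1 and 22.8 FPKM in KO, separated by under 1 FPKM. Fhl2, a LIM-only cofactor, was at 2.02, 2.49 and 3.02 FPKM in WT against 1.37, 1.91 and 1.91 FPKM in KO, again without overlap (limma, adjusted p 0.287). Zyxin (Zyx) and Lima1, both filament-associated LIM proteins, kept 95.9% and 93.6% of their WT means in KO. Fhl1, which is abundant in skeletal muscle, was at 96.2, 106 and 72.5 FPKM in WT against 47.1, 81.1 and 76.7 FPKM in KO, with KO replicate 1 lowest, and its log2 fold change of −0.44 was −0.19 without that library. Ankrd1, a stretch-responsive gene of striated muscle and a target of YAP, varied most of all members, at 2.01, 1.60 and 1.03 FPKM in WT against 0.51, 4.14 and 2.85 FPKM in KO.

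All 6 regulators of filament turnover had lower KO means, and 0 passed, with 3 at an unadjusted p under 0.05 (all genes tested, 19.2%). Wdr1, a cofactor of cofilin in taking filaments apart, was at 47.8, 50.4 and 47.5 FPKM in WT against 33.9, 34.2 and 31.8 FPKM in KO. The spread within each group was small and the gap between them was above 13 FPKM (log2 fold change −0.53, SE 0.13, limma adjusted p 0.0653). Profilin 1 (Pfn1), which supplies monomers to growing ends, was at 211, 287 and 341 FPKM in WT against 207, 189 and 170 FPKM in KO (log2 fold change −0.54, SE 0.19, limma adjusted p 0.170). Cofilin 1 (Cfl1), the main severing protein, was at 226, 287 and 306 FPKM in WT against 217, 219 and 186 FPKM in KO (log2 fold change −0.39, SE 0.16, limma adjusted p 0.232). In both genes WT replicate 1 sat next to the KO libraries, and without it Pfn1 passed at −0.73 (limma, adjusted p 0.0469). Arpc2, a core subunit of the Arp2/3 branching complex, was at 145, 158 and 168 FPKM in WT against 136, 144 and 138 FPKM in KO, close but without overlap. The capping subunit Capzb and the formin Diaph1 kept 91.8% and 87.3% with overlap.

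**Figure D4:**
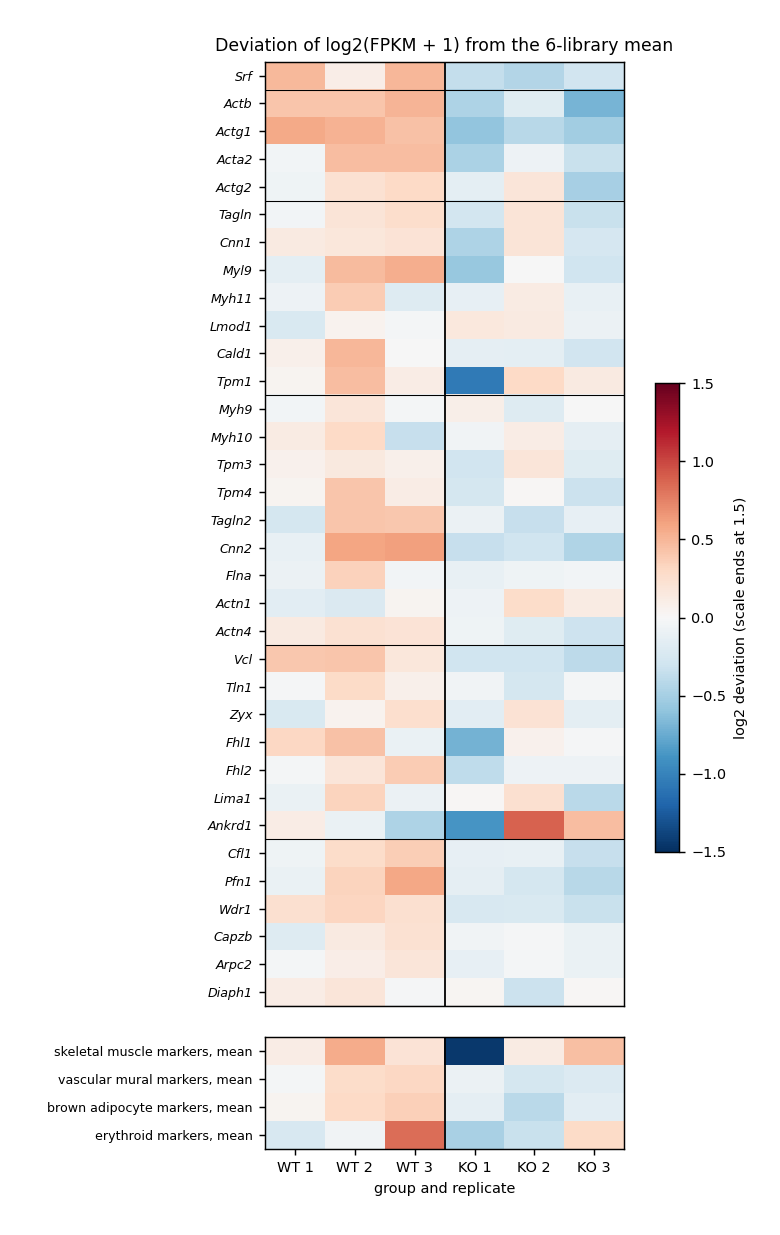
Deviation of log2(FPKM + 1) of each member from its mean over the 6 libraries, red above and blue below, with the mean deviation of 4 cell type marker lists in the lower rows. Other marker lists are not drawn. Of their tested genes, 0 of 8 macrophage, 1 of 8 fibroblast and preadipocyte and 4 of 8 endothelial markers had a lower KO mean. The same held for 4 of 5 Schwann cell and 2 of 2 cardiac muscle markers. The blue cell of Tpm1 in KO replicate 1 stands above the −1.45 of the skeletal muscle markers, while Actb and Actg1 are red in all WT and blue in all KO libraries.

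The libraries of a group were not alike in these genes. The mean log2 deviation of the 34 members from their 6-library means was 0.04, 0.27 and 0.18 in WT replicates 1 to 3 and −0.26, −0.03 and −0.20 in KO replicates 1 to 3. WT replicate 2 held the highest value of 15 members and WT replicate 3 of 14, whereas the lowest value fell in KO replicate 3 for 12 members and in KO replicate 1 for 11. Of the pairs made of 1 WT and 1 KO library, WT replicate 1 and KO replicate 2 lay nearest to each other in this mean. The coefficient of variation of Actb was 3.79% in WT and 18.1% in KO, and that of Actg1 was 4.63% and 6.08%.

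Among the 29 members with a promoter window, those with a CArG box had a median log2 fold change of −0.62 and those without one −0.23. The groups were separated, with KO lower, in 5 of the 8 with a box, Srf among them, and in 9 of the 21 without. Members were chosen with earlier results known and in part as SRF targets, so this split only describes them. A gene without a box here had no match in its windows and can still be an SRF target. Across the table the difference was small: of 172 tested genes with one, members included, 54.1% had a lower KO mean against 48.2% of the 10267 without, and the medians were −0.03 and 0.01. The groups were separated, with KO lower, in 12.8% of the 172 and in 11.5% of the 10267. Of the 172, 4 passed the threshold (2.33%), among them Actg1 and Vcl, against 2.09% of those without a box.

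The other genes of the pathway were read from 7 lists chosen by role, with 94 genes, of which 89 passed the filter. Of these, 3 passed the threshold, 1 lower and 2 higher, a share of 3.37% close to the 2.21% of all genes tested. The median log2 fold change of the 89 was −0.10. The immediate early SRF target Fos (chr12:85473890-85477274), a subunit of the AP-1 transcription factor, was at 9.04, 10.4 and 9.37 FPKM in WT against 2.71, 3.82 and 2.84 FPKM in KO. KO held 32.5% of the WT mean (log2 fold change −1.37, SE 0.16, limma adjusted p 0.00841), and the gene passed in all 16 alternative analyses. It was 1 of 7 immediate early targets tested, 4 of which had a lower KO mean. The SRF cofactor Mkl2, also called Mrtfb (chr16:13256056-13417529), rose from 8.58, 7.22 and 6.82 FPKM in WT to 14.0, 11.8 and 14.5 FPKM in KO (log2 fold change 0.76, SE 0.15, limma adjusted p 0.0429). Its relative Mkl1 was at 5.08 ± 0.785 and 4.61 ± 0.817 FPKM (SD, n = 3 each), and the smooth muscle cofactor Myocd was at 0.26 to 0.41 FPKM in all libraries, under the filter; these 2 are named after their values were seen. Ssh2, a phosphatase that activates cofilin, rose from 5.30, 6.10 and 4.60 FPKM to 16.5, 11.4 and 29.3 FPKM (log2 fold change 1.57, SE 0.29, limma adjusted p 0.0387). KO replicate 3 was the highest, and without it the fold change was 1.22. Mkl2 lost the threshold in 9 of the 16 alternatives, among them each fit without a library except WT replicate 1 (limma, adjusted p 0.0722 to 0.180). Ssh2 lost it in 6, among them the fits without WT replicate 1 (0.0546), WT replicate 2 (0.125), WT replicate 3 (0.128) or KO replicate 1 (0.0672).

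In the 4 lists without a passing gene in the whole-table fit, the smallest p-values belonged to the following. Palld, the filament scaffold palladin, was at 16.3, 16.5 and 12.5 FPKM in WT against 8.65, 7.59 and 9.31 FPKM in KO (log2 fold change −0.75, SE 0.16, limma adjusted p 0.0519). It passed in 6 of the 16 alternatives (limma, adjusted p 0.0381 to 0.0495), namely both other pseudocounts, the filter at 5 FPKM, quantile and median-of-ratios scaling and robust eBayes. Ajuba, a LIM protein of adhesions, was at 11.9 ± 1.55 and 7.25 ± 0.545 FPKM (SD, n = 3 each; limma, −0.64, adjusted p 0.0637). Vasp, which extends filament ends, was at 27.5 ± 5.17 and 17.8 ± 2.94 FPKM (limma, −0.60, adjusted p 0.125). Tes, another LIM protein of adhesions, had a higher KO mean, at 1.74 ± 0.401 and 2.69 ± 0.337 FPKM (limma, log2 fold change 0.43, past the threshold in neither direction). The list medians ran from −0.29 for the other myosin, tropomyosin and cross-linker genes (10 of 13 lower) and −0.28 for shared targets of YAP and MRTF (6 of 9 lower) to −0.01 for the other filament turnover genes (13 of 26 lower). Of the 9 shared targets 6 were separated, 5 with KO lower and 1 with KO higher, against 24.9% of all genes tested. In the other lists this share ran from 14.3% to 42.9%. At an unadjusted p under 0.05 in limma were 5 of the 9 (all genes tested, 19.2%).

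**Figure D5:**
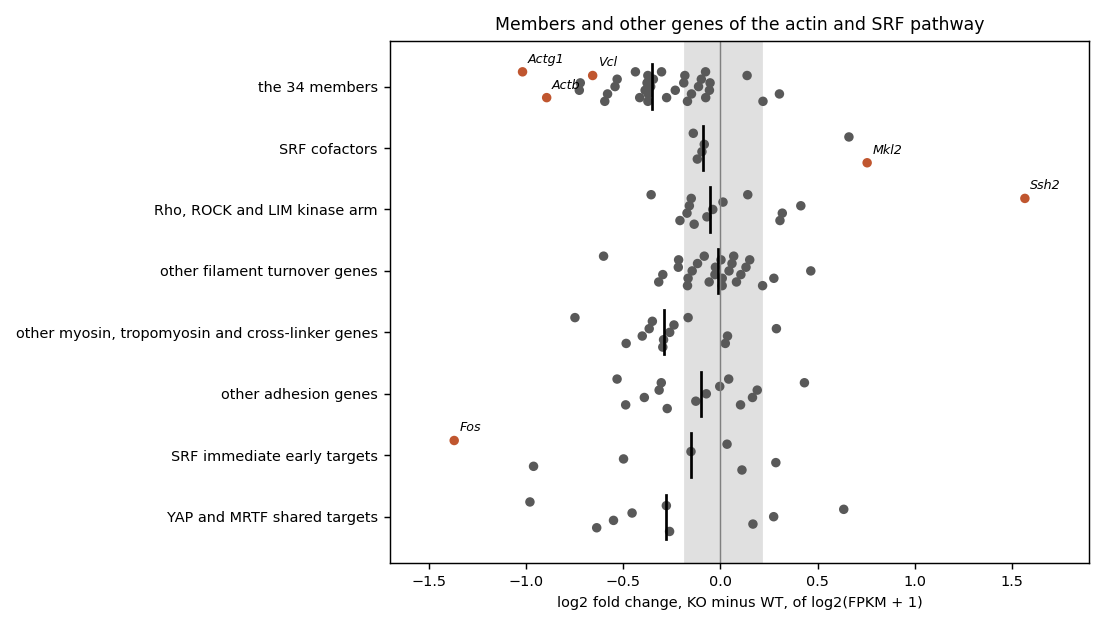
Log2 fold change (KO minus WT, of log2(FPKM + 1)) of the 34 members and of the 7 lists of other pathway genes, each point 1 gene, with list medians as black lines and genes past an adjusted p of 0.05 in orange. The grey band spans the quartiles of all genes tested, −0.18 to 0.22, and the members' median of −0.35 lies left of it.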

How the data were processed

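The authors deposited 1 table of FPKM values per gene, rounded to 2 decimals, per the file headers. The submitters' processing notes name HISAT2 2.0.4, Bowtie2 2.2.5, DESeq2 without a version, and the build mm10. The counting tool, strand handling and filters are not given in the sources used here. All 6 value columns were used, mapped to samples by title. From the FPKM, log2(FPKM + 1) was computed with no further scaling, genes averaging 0.5 FPKM or more were kept, and KO was compared with WT in limma 3.58.1 (R 4.3.3, lmFit, eBayes with trend), with Benjamini-Hochberg adjustment over all genes and a threshold of 0.05. The pseudocount understates changes of low genes. The fit was tested on simulated data.

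Low values of genes with a single transcript fell in steps of whole reads: with a length offset of 50 nt, 78.1% to 82.2% lay within 0.2 of a whole number, which put the depth at 13900000 to 15000000 reads per library, so 3 reads on 1 kb are 0.21 to 0.23 FPKM. The offset and depth were those that gave the highest such share in each library. Only short genes with low values were examined, so no count model was run. FPKM summed to 486449 to 556968 per library.

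The members and lists were chosen with earlier results of these data known. Named are all members, Fstl1, pathway genes past the threshold or, failing these, the smallest p-value of a list, and defining markers. Alternatives were other pseudocounts, filters, scalings and eBayes settings, a replicate block and leaving out each library. WT and KO share replicate numbers; deviations of same-numbered libraries correlated at 0.068, 0.043 and 0.043, so the numbers were not taken as pairs. Promoters and gene positions are from RefSeq (GRCm38.p6) and exons from GENCODE vM21.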

Additional observations from a re-analysis of the deposited data

How the results depend on the processing

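The number of members past the threshold was 3, with 4 under the filter at 5 FPKM and robust eBayes, 2 with a common sum and without the eBayes trend, and 1 without the filter and with the replicate block; leaving out each library in turn it ran from 0 (without WT replicate 2) to 5 (without WT replicate 1). Over all genes the count was 295, with 372 under robust eBayes, 35 without the filter, 191 with rescaling to a common sum, 167 with the replicate block, and 34 to 444 when 1 library was left out. The wider pathway count was 3, with 4 under both other pseudocounts, the filter at 5 FPKM, quantile normalization and robust eBayes, 2 with a common sum, 1 without the filter, 1 with the block and 1 to 3 when a library was left out. Fstl1 stayed at −2.79 without the filter, where it missed the threshold (limma, adjusted p 0.0606), and ran from −3.01 to −2.39 when a library was left out. The number of members with a lower KO mean was 28 to 31, and their median −0.40 to −0.25. The block turned no fold change, and its lost calls among the genes named here were Actb (limma, adjusted p 0.0594), Vcl (0.0760), Cspg4 (0.0741), Mkl2 (0.0661) and Ssh2 (0.0546). The replicate numbers were not taken as a pairing of the libraries (correlations of 0.068, 0.043 and 0.043).

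Without the filter, calls were also lost for Cspg4 (limma, adjusted p 0.122), Higd1b (0.0859), Mkl2 (0.0975) and Ssh2 (0.107), and with a common sum for Cspg4 (0.0538) and Mkl2 (0.0682). Of the 34 members 27 kept their direction in all alternatives that could be run. The other 7 reversed only when a library was left out, with ranges of −0.191 to 0.096 for Myh11, −0.669 to 0.010 for Tpm1, −0.138 to 0.003 for Myh9, −0.239 to 0.085 for Myh10, −0.183 to 0.058 for Zyx, −0.244 to 0.080 for Lima1 and −0.060 to 0.823 for Ankrd1. The difference in the smooth muscle share of the 4 actins ran from 0.638 to 1.36 percentage points, that of Actg1 in both cytoplasmic actins from −4.09 to −0.644 and that of Myh11 from −1.31 to 0.913. Under each other scaling the all-gene median shifted by 0.1 or less. The cause of these shifts was not tested.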

Other observations

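Actb is widely used as a reference gene, and the choice of reference changes what a ratio shows here. The genes in this paragraph were chosen after their values were seen. Ucp1 was at 48.9% of WT in KO by FPKM (limma, adjusted p 0.0804, past the threshold in 0 of 16 alternatives). Relative to Rplp0, whose KO mean was 103% of WT, it was at 48.2%, and no KO library reached a WT library. Relative to Actb the same Ucp1 values gave 8.85, 12.5 and 11.9 in WT and 10.9, 5.21 and 15.8 in KO, or 96.0% of WT with overlap. Relative to Actg1 the KO mean also fell within the WT range. Relative to Ppia, Hprt and Tbp, Ucp1 was at 55.5%, 54.4% and 29.65% of WT, with overlap for Hprt only. By FPKM, the common references Ppia and Hprt were themselves at 89.6% and 89.8% of WT with overlap. Sdha, Ywhaz and Rpl13a were at 99.1%, 91.0% and 114%, also with overlap. Tbp was at 160.6% and B2m at 143%, each with its lowest KO value above its highest WT value and neither past the threshold (limma, adjusted p 0.153 and 0.109). Gapdh was at 73.6% with overlap.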
